A study of Homo sapiens with 15 samples.

Results

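The genes described here are 31 neighbours on human chromosome band 12q24.31, from P2RX4 to KMT5A in reference order, whose expression stood out in the neuroblastoma cell line NGP. They are 31 of the 18244 genes that the arrays measured with a probe set naming a single gene. The members were picked from measured values, namely the level in NGP against the mean of the other lines, so every NGP value below is a description and carries no test. Total RNA of 5 established human neuroblastoma lines, grown in culture medium with fetal bovine serum and not otherwise treated, was measured on 15 arrays, 3 each for NGP, SK-N-AS, SH-SY5Y, BE(2)-C and KELLY. NGP, BE(2)-C and KELLY are known as lines with amplified MYCN, whereas SH-SY5Y and SK-N-AS are known as lines without it. Each line is a single tumour-derived culture. Nothing in the labels says that the numbered replicates of a line were grown separately, so p-values measure the spread between these samples only, and that spread may be technical.

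Neuroblastoma is a childhood tumour of the sympathetic nervous system that often carries gained, lost or amplified chromosome segments, and genes inside such a segment often change in dosage together whatever their function. The long arm of chromosome 12 holds CDK4, a kinase that drives cell cycle entry, and MDM2, the ubiquitin ligase that restrains p53, and NGP is known as a line with amplified MDM2 and CDK4. The 12q24.31 genes lie further towards the end of the same arm and do unrelated jobs: they include chromatin enzymes, cell division proteins, calcium channels, vesicle sorting factors and a glucose-sensing transcription factor. DNA copy number was not measured on these arrays.

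The array medians of the deposited intensities averaged 76.8 ± 2.98 in NGP, against SK-N-AS at 123 ± 3.23, SH-SY5Y at 54.4 ± 2.65, BE(2)-C at 103 ± 0.379 and KELLY at 68.3 ± 1.37 (SD, n = 3 each). Unless stated otherwise, levels below are log2 intensities relative to the median tested gene of the same array, so that 0 is that array's median. Differences are on the same log2 scale. This choice sets aside any difference in total signal between lines, whatever its source. Setting the medians of the ERCC spike-in RNA equal instead left values near the deposited scale. The median tested gene then differed by -0.13 between NGP and the mean of the other lines, against -0.12 as deposited. Which scale is the right one was not tested. Of the sympathoadrenal markers, HAND2 was high in every line, at 5.10 ± 0.03 in NGP and from 4.63 ± 0.04 in SK-N-AS to 5.24 ± 0.04 in KELLY among the others (SD, n = 3 each). PHOX2A averaged 2.36 ± 0.07 in NGP, against -0.63 ± 0.07 in SK-N-AS and 2.47 ± 0.05 to 3.12 ± 0.07 in the other 3 lines. ISL1 averaged 3.17 ± 0.03 in NGP against -0.09 ± 0.07 in SK-N-AS. GATA3 averaged 3.46 ± 0.06 in NGP, and the other lines lay between 1.87 ± 0.04 (SK-N-AS) and 4.23 ± 0.10 (SH-SY5Y). The noradrenaline enzymes varied: TH stood at -1.09 ± 0.24 in NGP against 2.76 ± 0.01 in KELLY, and DBH at 1.55 ± 0.04 in NGP against -2.27 ± 0.10 in SK-N-AS. SK-N-AS was thus below the array median for PHOX2A, ISL1, TH and DBH, and NGP for TH alone of the 6 markers measured.

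Most of the block stood high in NGP, with smaller differences between the other lines. The median member lay 2.30 above the mean of the other 4 lines, a 4.92-fold difference, and the quartiles of the members were 1.66 and 2.83. Over all 12721 tested genes the same median was 0.04. A gene was called higher in NGP when limma put it above each of the other 4 lines at an adjusted p under 0.05 with a log2 difference of at least 1. By that rule 23 of the 31 members (74.2%) were higher in NGP, against 1.86% of all tested genes, a share that the choice of the members fixes and from which nothing is read. Taking the median over the 31 members on each array, the block stood at 2.29 ± 0.06 in NGP, against SK-N-AS at 0.25 ± 0.01, SH-SY5Y at -0.18 ± 0.05, BE(2)-C at -0.12 ± 0.02 and KELLY at -0.01 ± 0.04, relative to each gene's mean over the 4 lines other than NGP (SD, n = 3 each). In 28 of the 31 members the lowest NGP array was above the highest of the 12 other arrays. The share of all tested genes that did so was not computed, and the choice of the members favours it, so nothing is read from this count. Replicates of NGP were close, with a median SD over the members of 0.06 and a largest SD of 0.27, for CAMKK2.

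**Figure D1:**
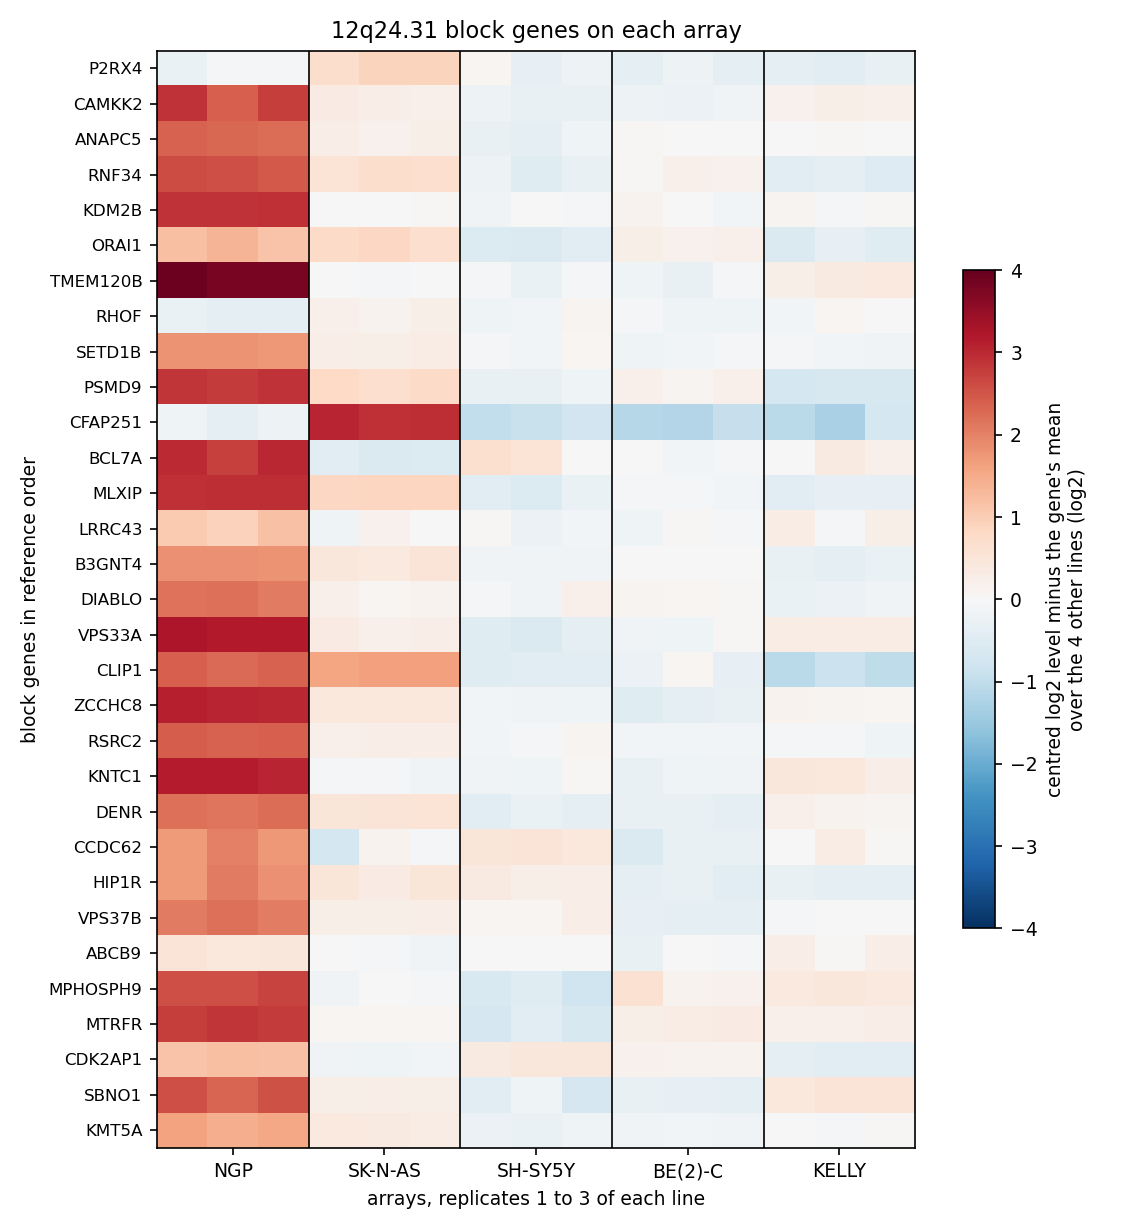
Centred log2 level of the 31 block genes on each of the 15 arrays, minus the gene's mean over the 4 lines other than NGP, with genes from top to bottom in reference order on chromosome 12 and 3 arrays per line. Red is higher and blue lower than that mean; the NGP columns are red in most rows, P2RX4 and RHOF stay pale in NGP, and CFAP251 is red in SK-N-AS.

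The raised genes did not all form an unbroken run. P2RX4, the first gene of the block, was not raised, and the run began at its neighbour CAMKK2. Within the run, RHOF lay beside TMEM120B and CFAP251 beside PSMD9, so that a gene that followed and a gene that did not were neighbours. These 4 promoters are shown because in each pair of neighbours TMEM120B or PSMD9 was called above all 4 lines and the other gene was not. They are the 250 bases before the RefSeq start (GRCh38.p14), read 5′ to 3′ on the strand of the gene, with the CG dinucleotides in capitals. The windows lie at chr12:121712502-121712751 on the plus strand (TMEM120B, followed), chr12:121793689-121793938 on the minus strand (RHOF, did not follow), chr12:121888540-121888789 on the plus strand (PSMD9, followed) and chr12:121918342-121918591 on the plus strand (CFAP251, did not follow).
TMEM120B: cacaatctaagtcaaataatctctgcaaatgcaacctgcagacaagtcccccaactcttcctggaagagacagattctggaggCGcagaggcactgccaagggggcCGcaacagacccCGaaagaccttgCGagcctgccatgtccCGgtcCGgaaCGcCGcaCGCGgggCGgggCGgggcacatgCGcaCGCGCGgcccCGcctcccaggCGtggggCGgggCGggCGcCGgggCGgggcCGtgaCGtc
RHOF: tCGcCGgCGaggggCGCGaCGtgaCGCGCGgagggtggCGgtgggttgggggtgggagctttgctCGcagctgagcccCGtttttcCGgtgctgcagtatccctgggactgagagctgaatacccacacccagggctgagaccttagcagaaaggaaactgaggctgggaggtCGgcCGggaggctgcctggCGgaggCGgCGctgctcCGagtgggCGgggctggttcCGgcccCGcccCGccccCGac
PSMD9: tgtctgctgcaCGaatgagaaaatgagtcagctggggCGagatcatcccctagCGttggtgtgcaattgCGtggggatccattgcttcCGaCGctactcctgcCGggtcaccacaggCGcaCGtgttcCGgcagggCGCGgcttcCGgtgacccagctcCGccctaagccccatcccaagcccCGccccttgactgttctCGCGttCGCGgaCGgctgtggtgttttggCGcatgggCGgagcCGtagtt
CFAP251: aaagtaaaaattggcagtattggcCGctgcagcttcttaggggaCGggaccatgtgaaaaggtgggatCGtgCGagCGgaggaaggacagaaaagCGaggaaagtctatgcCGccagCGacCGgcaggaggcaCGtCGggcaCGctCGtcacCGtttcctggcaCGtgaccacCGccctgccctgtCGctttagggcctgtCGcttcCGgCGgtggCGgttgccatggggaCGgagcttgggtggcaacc

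All 4 windows are rich in CG dinucleotides, with 25 for TMEM120B, 24 for RHOF, 23 for PSMD9 and 22 for CFAP251. The E-box CACGTG, which reads the same on both strands and is the letter pattern bound by MYC family and MondoA proteins, occurs at base 120 of the PSMD9 window and base 163 of the CFAP251 window, and in neither of the other two. Of the 31 members, 26 had at least 1 window in the table, 40 windows in all, and their median held 24 CG dinucleotides and 66.4% G and C, against 11 and 58.0% over all 35116 windows. Windows of the members raised in NGP had a median ratio of observed to expected CG dinucleotides of 0.91, those of the other members 0.79, and all windows 0.56. CACGTG was found in 3 of 29 windows of the raised members and 2 of 11 windows of the others, which together is 12.5% of the members' windows against 6.34% of all windows. TATAAA, searched on both strands, was found in 0 of the 40 windows and in 10.7% of all. These matches describe the letters of the windows only.

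Of the chromatin genes, all 5 were higher in NGP, with a median difference of 2.49. BCL7A, a subunit of the SWI/SNF remodelling complex, had the largest difference of the group. BCL7A read 3.71, 3.45 and 3.73 on the NGP arrays, against SK-N-AS at 0.30, 0.12 and 0.16, SH-SY5Y at 1.35, 1.26 and 0.71, BE(2)-C at 0.73, 0.59 and 0.64 and KELLY at 0.69, 1.09 and 0.93. Every NGP array was above every other array, and the difference from the mean of the other lines was 2.91 ± 0.11 (moderated SE), or 7.54-fold. KMT5A, the histone methyltransferase that adds a single methyl group to histone H4, had the smallest. The NGP arrays gave 1.96, 1.82 and 1.92, against SK-N-AS at 0.74, 0.71 and 0.67, SH-SY5Y at 0.12, 0.11 and 0.19, BE(2)-C at 0.22, 0.26 and 0.23 and KELLY at 0.39, 0.31 and 0.40. The difference was 1.54 ± 0.04 and the groups did not overlap, with SK-N-AS the nearest line. KDM2B, a histone demethylase that binds unmethylated CpG islands, differed by 2.91, SBNO1, a helicase-like protein related to strawberry notch of the fly, by 2.49, and SETD1B, the catalytic subunit of a SET1 complex that methylates histone H3, by 1.78.

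The 4 genes of RNA handling and translation were all higher in NGP, with a median difference of 2.60. ZCCHC8, the scaffold of the nuclear exosome targeting complex, led them. In NGP ZCCHC8 stood at 4.20, 4.15 and 4.11, against SK-N-AS at 1.52, 1.51 and 1.52, SH-SY5Y at 0.98, 0.97 and 0.93, BE(2)-C at 0.63, 0.73 and 0.82 and KELLY at 1.25, 1.20 and 1.18. That is 3.05 ± 0.04 above the mean of the other lines, an 8.28-fold difference. DENR, which works with MCTS1 in recycling ribosomes and restarting translation, had the smallest difference. Its levels were 4.95, 4.89 and 4.98 in NGP, against SK-N-AS at 3.24, 3.27 and 3.30, SH-SY5Y at 2.30, 2.46 and 2.38, BE(2)-C at 2.45, 2.45 and 2.36 and KELLY at 2.94, 2.88 and 2.87. NGP exceeded the others by 2.20 ± 0.04, and SK-N-AS was the nearest line. MTRFR, which rescues stalled mitochondrial ribosomes, differed by 2.80 and RSRC2, an arginine and serine rich protein, by 2.40.

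Of the 6 genes of ubiquitin ligation, the proteasome and cell division, 5 were higher in NGP than in all 4 lines, with a median difference over the 6 of 2.59. KNTC1, the Rod subunit of the kinetochore complex that loads dynein and checkpoint proteins, led. KNTC1 read 4.52, 4.55 and 4.45 on the NGP arrays, against SK-N-AS at 1.33, 1.33 and 1.25, SH-SY5Y at 1.25, 1.22 and 1.43, BE(2)-C at 1.09, 1.24 and 1.26 and KELLY at 1.85, 1.80 and 1.65. The difference was 3.11 ± 0.05, or 8.65-fold, with no overlap. CDK2AP1, which binds and inhibits the kinase CDK2, had the smallest difference of the group and was the member that missed the rule. The NGP arrays gave 5.50, 5.58 and 5.55, against SK-N-AS at 4.24, 4.19 and 4.25, SH-SY5Y at 4.73, 4.81 and 4.82, BE(2)-C at 4.53, 4.50 and 4.51 and KELLY at 3.98, 3.96 and 3.95. All NGP arrays were above all others, by 1.17 ± 0.03 against the mean of the lines, but SH-SY5Y lay only 0.75 below NGP. PSMD9, a chaperone of proteasome assembly, differed by 2.86, and MPHOSPH9, a centriole protein, by 2.62. RNF34, a RING ubiquitin ligase, differed by 2.55 and ANAPC5, a scaffold subunit of the anaphase-promoting complex, by 2.30.

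The calcium and cell death genes divided, with 2 of 4 higher in NGP and a median difference of 1.69. CAMKK2, the calcium and calmodulin dependent kinase that activates AMPK, had the largest difference. In NGP CAMKK2 stood at 4.75, 4.23 and 4.61, against SK-N-AS at 2.16, 2.12 and 2.05, SH-SY5Y at 1.63, 1.53 and 1.56, BE(2)-C at 1.65, 1.61 and 1.70 and KELLY at 2.01, 2.09 and 2.03. NGP replicate 2 was the lowest of the 3 NGP arrays, still far above every array of the other lines, and the difference was 2.68 ± 0.07. P2RX4, an ATP-gated cation channel, did not follow. Its levels were -1.27, -1.04 and -1.04 in NGP, against SK-N-AS at -0.30, -0.10 and -0.10, SH-SY5Y at -0.92, -1.31 and -1.19, BE(2)-C at -1.35, -1.21 and -1.37 and KELLY at -1.37, -1.45 and -1.28. NGP lay among SH-SY5Y, BE(2)-C and KELLY and below SK-N-AS, and its difference from the mean of the others was -0.12 ± 0.08. ORAI1, the pore of the store-operated calcium channel, was above 3 of the 4 lines by the rule. ORAI1 read 0.67, 0.81 and 0.61 on the NGP arrays, against SK-N-AS at 0.23, 0.30 and 0.13, SH-SY5Y at -1.09, -1.11 and -0.97, BE(2)-C at -0.31, -0.36 and -0.33 and KELLY at -1.11, -0.86 and -1.02. On centred arrays NGP was the highest line, yet SK-N-AS lay only 0.48 below NGP, and the difference from the mean of the lines was 1.24 ± 0.06. DIABLO, the mitochondrial protein that releases caspases from their inhibitors, was 2.14 higher in NGP and passed against all 4 lines.

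Of the 6 trafficking and cytoskeleton genes, 3 were higher in NGP than in all 4 lines, with a median difference of 1.99. VPS33A, a core subunit of the HOPS and CORVET tethers of late endosomes and lysosomes, led. The NGP arrays gave 3.88, 3.82 and 3.81, against SK-N-AS at 0.96, 0.84 and 0.92, SH-SY5Y at 0.15, 0.07 and 0.25, BE(2)-C at 0.50, 0.48 and 0.68 and KELLY at 0.94, 0.94 and 0.95. The difference was 3.20 ± 0.05, or 9.17-fold, and no arrays overlapped. RHOF, a small GTPase that promotes filopodia, had the lowest difference of the whole block. In NGP RHOF stood at -1.66, -1.76 and -1.75, against SK-N-AS at -1.18, -1.23 and -1.15, SH-SY5Y at -1.56, -1.50 and -1.27, BE(2)-C at -1.43, -1.54 and -1.55 and KELLY at -1.48, -1.29 and -1.35. The NGP arrays were the 3 lowest of the 15, at -0.35 ± 0.07 against the mean of the other lines, and no contrast with another line reached a difference of 1. CLIP1, a protein of growing microtubule ends, passed against 3 lines and missed against SK-N-AS. Its levels were 2.48, 2.36 and 2.44 in NGP, against SK-N-AS at 1.67, 1.73 and 1.73, SH-SY5Y at -0.41, -0.38 and -0.37, BE(2)-C at -0.15, 0.17 and -0.25 and KELLY at -0.99, -0.76 and -0.94. SK-N-AS lay 0.72 below NGP and far above the other 3 lines, while the difference from the mean of the lines was 2.34 ± 0.07. ABCB9, a lysosomal peptide transporter, stood only slightly above the other lines. ABCB9 read -0.69, -0.78 and -0.74 on the NGP arrays, against SK-N-AS at -1.20, -1.26 and -1.36, SH-SY5Y at -1.22, -1.23 and -1.20, BE(2)-C at -1.50, -1.18 and -1.29 and KELLY at -0.95, -1.16 and -0.95. The NGP arrays were above all others, but by 0.17 at the closest, and the difference of 0.47 ± 0.07 did not reach 1 against any line. VPS37B, a subunit of the ESCRT-I sorting complex, was 2.12 higher in NGP and HIP1R, which links clathrin-coated pits to actin, 1.87.

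The 3 genes of nutrient sensing, glycan synthesis and membranes were all higher in NGP, with a median difference of 2.95. TMEM120B, a multipass membrane protein, had the largest difference of the block. The NGP arrays gave 3.14, 3.01 and 3.03, against SK-N-AS at -0.76, -0.82 and -0.78, SH-SY5Y at -0.81, -1.03 and -0.84, BE(2)-C at -0.93, -1.08 and -0.86 and KELLY at -0.52, -0.40 and -0.39. That is 3.83 ± 0.06, or 14.2-fold, with no overlap. B3GNT4, a glycosyltransferase of poly-N-acetyllactosamine chains, had the smallest of the group. In NGP B3GNT4 stood at 0.17, 0.14 and 0.11, against SK-N-AS at -1.22, -1.29 and -1.14, SH-SY5Y at -1.82, -1.83 and -1.80, BE(2)-C at -1.68, -1.64 and -1.67 and KELLY at -1.98, -2.05 and -1.95. The difference was 1.81 ± 0.05. MLXIP, also called MondoA, a transcription factor that senses glucose phosphates, was 2.95 higher in NGP.

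Of the last 3 members, CCDC62, a coiled-coil protein best known from the testis, was higher in NGP than in all 4 lines. Its levels were -1.70, -1.38 and -1.66 in NGP, against SK-N-AS at -4.10, -3.26 and -3.46, SH-SY5Y at -2.93, -2.87 and -2.98, BE(2)-C at -3.99, -3.69 and -3.70 and KELLY at -3.40, -3.10 and -3.34. It was the only member that entered the test through NGP alone, since its level in the other 4 lines lay under the filter on dim genes, and its difference was 1.82 ± 0.14. LRRC43, a leucine-rich repeat protein, passed against 3 lines. LRRC43 read -1.33, -1.46 and -1.20 on the NGP arrays, against SK-N-AS at -2.55, -2.20 and -2.35, SH-SY5Y at -2.34, -2.62 and -2.48, BE(2)-C at -2.54, -2.33 and -2.47 and KELLY at -2.08, -2.42 and -2.14. KELLY lay 0.89 below NGP, just under the threshold of 1, and the difference from the mean of the lines was 1.05 ± 0.10. CFAP251, a protein of the cilium and the sperm tail, did not follow. The NGP arrays gave -2.27, -2.48 and -2.31, against SK-N-AS at 0.96, 0.82 and 0.84, SH-SY5Y at -3.07, -2.99 and -2.87, BE(2)-C at -3.23, -3.28 and -3.01 and KELLY at -3.18, -3.40 and -2.79. SK-N-AS was the high line for CFAP251, 3.23 above NGP, whereas NGP lay above SH-SY5Y, BE(2)-C and KELLY on every array. Its difference from the mean of the lines was -0.25 ± 0.10.

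The 8 members that did not follow were thus of different kinds. P2RX4 and RHOF were called higher against none of the 4 lines and, on centred arrays, overlapped or lay below the other arrays. CFAP251 was lower in NGP than in SK-N-AS and was called higher than no line, and ABCB9 was raised by too little. ORAI1, LRRC43, CLIP1 and CDK2AP1 missed against a single line each. Ordered by the gap to the nearest line, LRRC43 at 0.89 was just outside the rule and KMT5A at 1.19 just inside it. Of the 20 members whose signal in the other lines was above the array median, 18 followed, with a median difference of 2.52. Of the 11 members below the array median, 5 followed, with a median of 1.24. The matching shares over all tested genes were not computed, and the level in the other lines is itself a term of the difference. Nothing is therefore read from this split, and the part of low signal in the result was not tested.

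The 31 members had 80 probe sets, and 20 genes had more than 1. Of the 42 probe sets that were not used for a gene but passed the filter, 38 had all NGP arrays above all others, with a median difference of 2.19. Among the 7 dim probe sets that were not used, 5 did so, with a median of 0.84. The same shares over all probe sets of the arrays were not computed. These genes were chosen by their level in NGP, so the counts are no independent support. All 3 probe sets of RHOF and both of P2RX4 were not raised in NGP, with differences from -0.35 to 0.03 for RHOF and from -0.22 to -0.12 for P2RX4. The 8 probe sets of ABCB9 ran from 0.32 to 1.23, and those of CLIP1 from 1.66 to 2.34. Probe sets disagreed for KDM2B, which had 1 of 5 at 0.79 and the others from 1.90 to 3.08, and for TMEM120B, whose second probe set stood at 1.82. Those of MLXIP ran from 1.25 to 3.11, and the second of HIP1R that passed the filter stood at 0.81 against 1.87 for the one used. For CFAP251 the high level in SK-N-AS was seen with 1 of 2 probe sets, and the other, which was dim, averaged -2.84 ± 0.21 in NGP and -2.93 ± 0.35 in SK-N-AS (SD, n = 3 each).

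**Figure D2:**
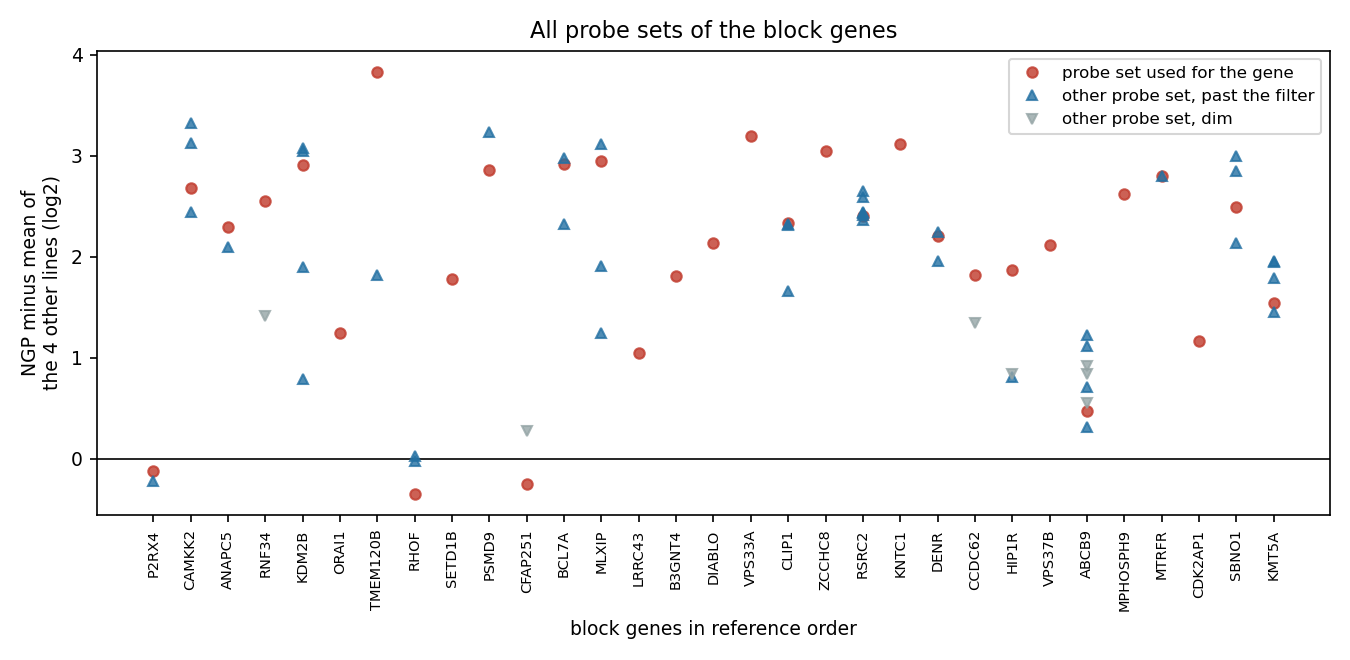
Difference of NGP from the mean of the other 4 lines (log2) for all 80 probe sets of the 31 block genes, in reference order; circles are the probe sets used, upward triangles the others that passed the filter and downward triangles dim ones. All probe sets of P2RX4 and RHOF lie near 0, and the ABCB9 probe sets lie between 0.32 and 1.23.

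On neither side of the block were the nearest tested genes called higher in NGP than in all 4 lines. None of the 5 nearest tested genes before it or the 5 after it passed in limma, against 1.86% of all tested genes. Before the block these were UNC119B, ACADS, SPPL3, OASL and P2RX7, with differences of -0.45, -0.62, -0.55, 0.05 and 0.97, and P2RX7, a second ATP-gated channel, was higher against KELLY alone of the 4 lines. After it, RILPL2, SNRNP35, RILPL1, TMED2 and DDX55 had differences of 0.31, -0.23, -0.72, -0.15 and 0.06. Among 20 tested genes on each side, 0 were higher than all 4 lines before the block, with a median difference of -0.15 and a range from -1.28 (COQ5) to 1.52 (MSI1). MSI1 was called higher against 3 of the 4 lines and COQ5 lower against 3. After the block the count was also 0, with a median of -0.33 and a range from -1.14 (ATP6V0A2) to 1.16 (RFLNA). Beside a share of 1.86% of all tested genes, counts of 0 among so few genes say little. The block was also listed with the NGP values known, which favours flanks that are not raised, so no edge is read from these counts. At an unadjusted p under 0.05 and with no threshold of size, 2 of the 20 genes on each side were higher in NGP than in all 4 lines, or 10.0%, against 10.9% of all tested genes, and 5 of 20 on each side were lower, against 10.3%.

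Genes inside the block that are not among the members were measured too. RefSeq places 38 protein-coding genes between the start of P2RX4 and that of KMT5A, without ORAI1, which it lists in that build as a transcribed pseudogene. Of the 38, 35 had a probe set, and 7 of these are not members. ARL6IP4, a protein linked to splicing, was higher in NGP than in all 4 lines. In NGP ARL6IP4 stood at 4.90, 4.75 and 4.76, against SK-N-AS at 3.29, 3.24 and 3.23, SH-SY5Y at 2.40, 2.29 and 2.38, BE(2)-C at 2.08, 2.17 and 2.19 and KELLY at 2.57, 2.67 and 2.65. The difference was 2.21 ± 0.04, close to the median member, and the groups did not overlap. OGFOD2, a member of the dioxygenase family, and PITPNM2, a phosphatidylinositol transfer protein, had differences of 0.90 ± 0.05 and 0.78 ± 0.10, each above 1 line by the rule. These 2 genes and ARL6IP4 lie between ABCB9 and MPHOSPH9, where the differences ran 0.47, 0.90, 2.21, 0.78 and 2.62 in reference order. MORN3, HPD, IL31 and HCAR1 were too dim to be tested. HCAR2, HCAR3 and LOC128125816 were not analysed here.

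**Figure D3:**
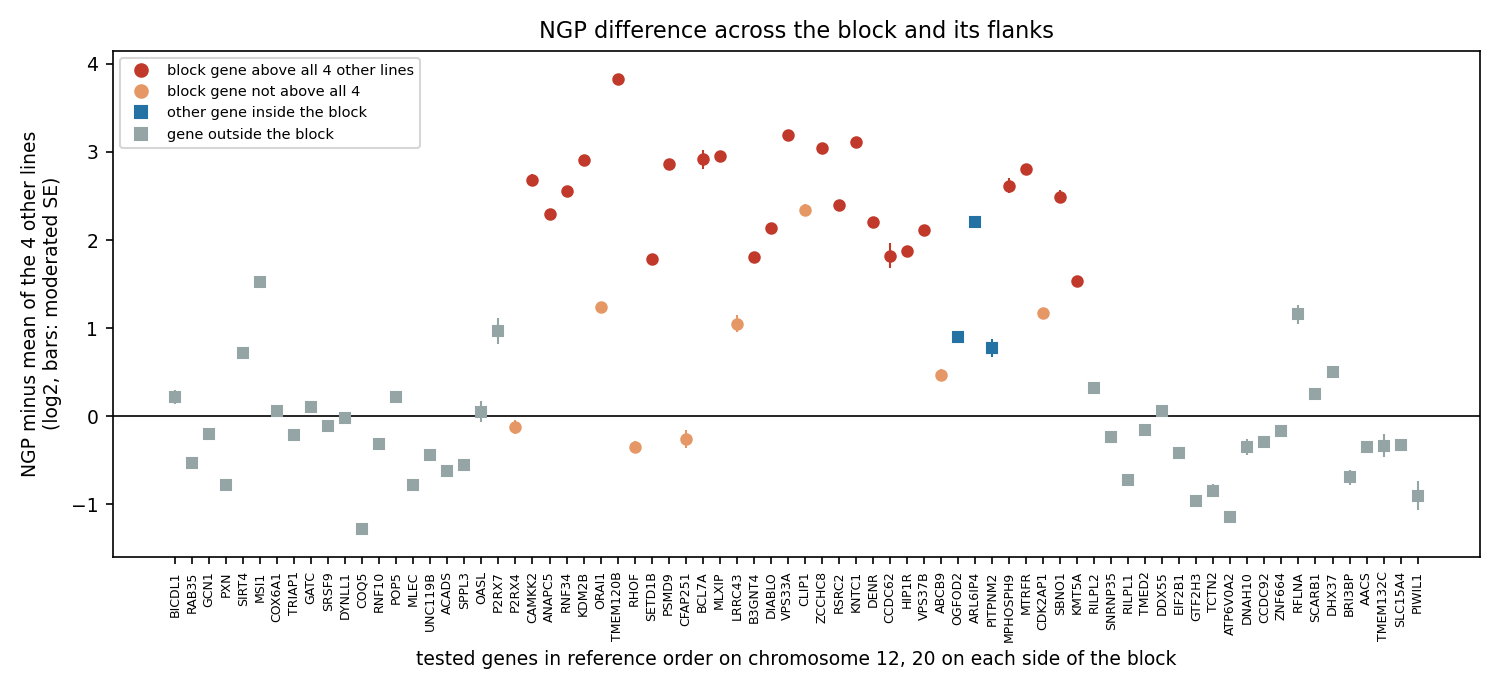
Difference of NGP from the mean of the other 4 lines (log2, bars are the moderated SE) for the tested genes of the block and 20 on each side, in reference order on chromosome 12, without distances to scale. The 20 genes before the block run from -1.28 to 1.52 around a median of -0.15 and the 20 after it from -1.14 to 1.16 around -0.33, while the members have a median of 2.30, with P2RX4, RHOF and CFAP251 just below 0.

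Over the rest of chromosome 12 the differences centred near 0. The 656 tested genes outside the member list had a median difference of 0.09. Of these, 29 were higher in NGP than in all 4 lines, against 236 of all 12721 tested genes (1.86%). Of those 29, 8 lay in the CDK4 neighbourhood, 7 in the MDM2 neighbourhood, ARL6IP4 inside the block, and 13 were on none of these lists. Some of the 13 lay beside listed genes, such as AGAP2-AS1 next to TSPAN31. In the CDK4 neighbourhood 8 of 15 tested genes were higher in NGP, with a median of 2.17, from 0.16 for B4GALNT1, a ganglioside synthase, to 4.14 for ATP23. CDK4 averaged 5.63 ± 0.07 in NGP, against 3.66 ± 0.07 for SK-N-AS, 3.41 ± 0.12 for SH-SY5Y, 3.59 ± 0.04 for BE(2)-C and 3.08 ± 0.04 for KELLY (SD, n = 3 each), a difference of 2.20. In the MDM2 neighbourhood 7 of 12 were higher, with a median of 2.00, from -0.15 for CAND1, a regulator of cullin ligases, to 3.07 for SLC35E3. MDM2 averaged 1.64 ± 0.12 in NGP, with the other lines between -0.996 ± 0.014 (BE(2)-C) and -0.40 ± 0.09 (SH-SY5Y), a difference of 2.27. The 3 stretches of the chromosome thus had medians of 2.30, 2.17 and 2.00. A difference between them was not tested. All 3 were listed with their NGP values known, so nothing is read from their counts beside the share of all tested genes.

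The partners of the block's proteins lie outside the block. They were listed by complex and pathway, with earlier results of these data known, and their NGP contrasts were tested. Of 93 listed partners in 13 complexes and pathways, 87 were tested, 0 were higher in NGP than in all 4 lines by limma and 1 was lower, against 1.86% and 1.35% of all tested genes. At an unadjusted p under 0.05 and with no threshold of size, 5 (5.75%) were higher and 11 (12.6%) lower in NGP than in all 4 lines, against 10.9% and 10.3% of all tested genes. The partners' median difference was -0.06, with a range from -1.74 to 1.30. BIRC2, an inhibitor of apoptosis protein that DIABLO binds, was the lower gene. Its levels were 1.08, 0.89 and 1.08 in NGP, against SK-N-AS at 2.51, 2.50 and 2.48, SH-SY5Y at 2.70, 2.74 and 2.87, BE(2)-C at 3.10, 3.16 and 3.11 and KELLY at 2.63, 2.64 and 2.66. NGP lay 1.74 ± 0.04 (SE) below the mean of the other lines without overlap, and the largest adjusted p of the 4 contrasts was 7.73e-14 in limma.

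Of the 13 complexes and pathways, the store-operated channel genes had the median furthest from 0. The 15 subunits and activators of the anaphase-promoting complex other than ANAPC5 had a median difference of 0.08, from -0.25 to 0.51. The 9 Polycomb partners of KDM2B had a median of -0.12 and the 11 methyltransferase genes and subunits listed for SETD1B one of -0.17. Trafficking partners lay at 0.01 for the 8 HOPS and CORVET genes of VPS33A and 0.07 for the 8 ESCRT-I genes of VPS37B. The 3 kinetochore partners of KNTC1 had a median of -0.47, the 3 exosome partners of ZCCHC8 one of 0.28 and the 3 partners of DENR one of -0.06. The 6 genes of the MondoA network and its targets stood at 0.09, the 5 SWI/SNF genes listed for BCL7A at 0.12 and the 7 apoptosis genes listed for DIABLO at -0.38. Of the calcium genes, the 5 kinase relatives and targets of CAMKK2 had a median of 0.67, from -0.52 to 1.30 for PRKAA2, a catalytic subunit of AMPK that was called higher against BE(2)-C alone. The 4 store-operated channel genes other than ORAI1 had a median of -0.68, from -1.20 for ORAI2, which was called lower against 3 lines, to -0.11.

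Contrasts between the other 4 lines did not enter the choice of the members, and on centred arrays a smaller share of the members than of all tested genes was called in each of the 6. On the deposited scale and with equal ERCC medians the members' share was the larger in 3 of the 6, namely SK-N-AS against SH-SY5Y and KELLY, and SH-SY5Y against BE(2)-C. In the last of these it was 74.2% against 56.1% of all tested genes on the deposited scale and 54.8% against 47.8% with equal ERCC medians. SK-N-AS against SH-SY5Y gave 5 called members of 31 (16.1%), against 25.9% of all tested genes, all 5 higher in SK-N-AS, and a median member difference of 0.54. SK-N-AS against BE(2)-C gave 3 (9.68%), against 25.1%, with a median of 0.38, and SK-N-AS against KELLY gave 7 (22.6%), against 29.1%, with a median of 0.27. All of these calls were higher in SK-N-AS. The medians over all tested genes in these 3 SK-N-AS contrasts were -0.11, -0.05 and -0.13. At an unadjusted limma p under 0.05, without the threshold of size, 23, 25 and 26 of the 31 members differed in them, against 78.7%, 76.6% and 83.2% of all tested genes. Between SH-SY5Y and BE(2)-C limma called 0 members, against 16.5% of all genes, and between BE(2)-C and KELLY also 0, against 17.4%. At an unadjusted p under 0.05, without the threshold of size, 16 and 19 of the 31 members differed in these 2 contrasts, against 75.5% and 78.8% of all tested genes, and the largest member differences were 0.93 and 0.83. SH-SY5Y against KELLY gave 1 member (3.23%), MPHOSPH9, against 14.9%, and 21 members differed at an unadjusted limma p under 0.05, against 70.9% of all tested genes. Over the 6 contrasts, 23 of 31 members (74.2%) were never called, against 52.5% of all tested genes. Among the 23 is CCDC62, which entered the test through NGP alone and lay under the filter on dim genes in these 4 lines. Its lack of calls says nothing here, yet it counts among the 31 members in every contrast. The difference between these shares was not tested. The count for SH-SY5Y against KELLY was 2 without replicate 2 and 0 without replicate 3 of SH-SY5Y, and that for SH-SY5Y against BE(2)-C was 1 without replicate 2 of SH-SY5Y or without replicate 2 or 3 of BE(2)-C.

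The calls came from few members. CFAP251 was higher in SK-N-AS than in SH-SY5Y by 3.85 ± 0.13, than in BE(2)-C by 4.05 ± 0.13 and than in KELLY by 3.995 ± 0.13 (moderated SE, limma adjusted p of at most 1.61e-14), the largest difference in each contrast. CLIP1 was higher in SK-N-AS than in the same 3 lines by 2.09 ± 0.09, 1.78 ± 0.09 and 2.60 ± 0.09 (limma adjusted p of at most 2.77e-12). P2RX4 was higher in SK-N-AS than in BE(2)-C by 1.14 ± 0.10 and than in KELLY by 1.20 ± 0.10 (limma adjusted p of 1.05e-08 and 4.73e-09). ORAI1 was higher in SK-N-AS than in SH-SY5Y by 1.27 ± 0.08 and than in KELLY by 1.21 ± 0.08 (limma adjusted p of 4.89e-11 and 8.88e-11). MLXIP was higher in SK-N-AS than in SH-SY5Y by 1.26 ± 0.06 and than in KELLY by 1.21 ± 0.06, and PSMD9 by 1.01 ± 0.05 and 1.40 ± 0.05 (limma adjusted p of at most 1.24e-11). RNF34 was 1.08 ± 0.07 higher in SK-N-AS than in KELLY (limma adjusted p of 2.13e-10). MPHOSPH9 was 1.04 lower in SH-SY5Y than in KELLY (a difference of -1.04 ± 0.11, limma adjusted p of 1.13e-07). Of the members called against SK-N-AS, CFAP251, CLIP1, P2RX4 and ORAI1 were among the 8 that did not follow in NGP. The rule needs NGP to exceed SK-N-AS by at least 1, so a high level in SK-N-AS favours a miss. Nothing is read from this overlap.

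**Figure D4:**
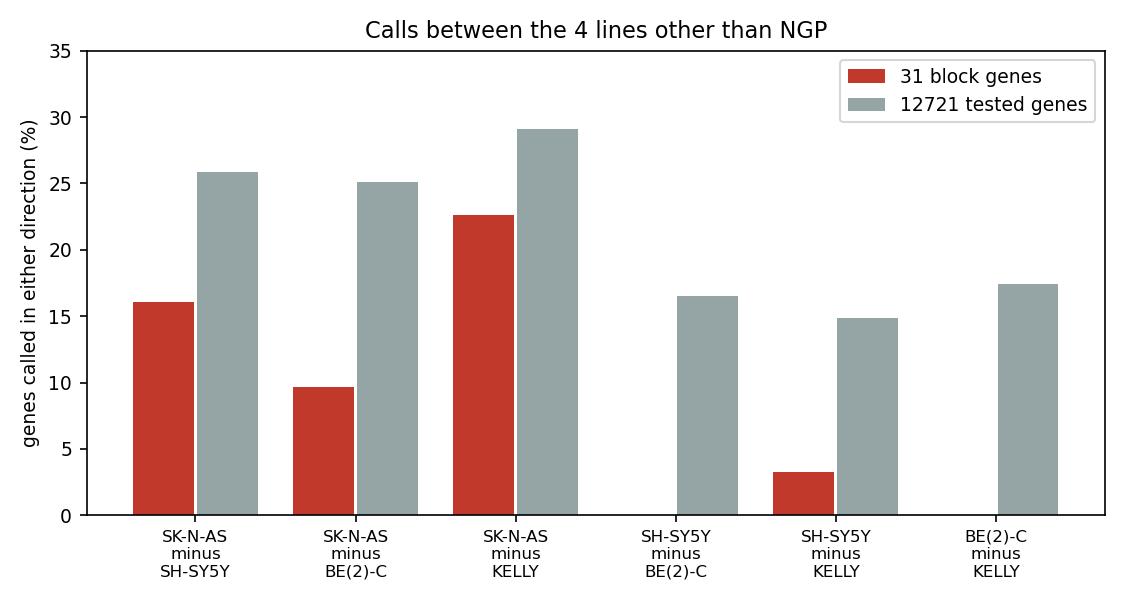
Share of genes called in either direction in each contrast between the lines other than NGP (%), for the 31 block genes (red, left) and all 12721 tested genes (grey, right). On these centred arrays the members' share is the smaller in all 6 contrasts, which turns in 3 of them on the deposited scale, and is 0 between SH-SY5Y and BE(2)-C and between BE(2)-C and KELLY.

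The pattern depended on the scale for some members. On the deposited scale, without centring, the median tested gene differed by -0.12 between NGP and the mean of the other lines, and 18 members were higher in NGP than in all 4 lines. SETD1B, KMT5A, DENR, HIP1R and B3GNT4 were the 5 that then missed. Against SK-N-AS the direction turned for ORAI1, with deposited intensities of 433 ± 48.4 in NGP against 544 ± 10.6 in SK-N-AS. It also turned for CLIP1, at 1428 ± 53.3 in NGP against 1530 ± 87.7 in SK-N-AS, and for ABCB9, at 159 ± 6.4 in NGP against 193 ± 6.4 in SK-N-AS and 162 ± 14.7 in BE(2)-C (SD, n = 3 each). RHOF turned against SH-SY5Y, at 79.7 ± 4.57 in NGP against 67.7 ± 9.40. P2RX4 turned against BE(2)-C, at 122 ± 11.8 in NGP against 164 ± 10.4 (SD, n = 3 each). Between SK-N-AS and SH-SY5Y the median over all tested genes moved to 1.23 on that scale, and 28 members were called, against 68.5% of all tested genes.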

How the data were processed

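Total RNA of 5 neuroblastoma lines was measured on 15 oligonucleotide arrays, with ERCC spike-in RNA added at lysis, per the labels' protocols. The authors' deposited values are linear intensity values, 1 per probe set and array; the tool was MAS5, per the submitters' processing notes, whose version and scaling are not given in the sources used. Of 49494 probe sets, 45277 named 1 gene in the platform annotation and 1333 several, which were not used. The probe set with the highest mean stood for each of 18244 genes. Values were taken as log2(intensity + 1) and arrays were centred on the median of the 12721 genes whose highest line mean reached 80.6 in intensity, the median of all values. All 31 members passed this filter.

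limma 3.58.1 in R 4.3.3 fitted 1 mean per line with an intensity-dependent prior variance. Calls needed a Benjamini-Hochberg adjusted p-value under 0.05 over all tested genes plus a log2 difference of 1 or more in size, and the fit was tested on simulated data. The members and all lists were chosen with earlier results of these data known. All members are named; per-array values are given for the largest and smallest NGP difference of each role group and for members that did not follow. Gene order is from RefSeq, assembly GRCh38.p14, as are the promoters. Alternatives changed the scale, the probe sets, the pseudocount, the filter, the prior variance and the replicate block, and left out each array. The number of arrays per line, 3, limits the precision.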

Additional observations from a re-analysis of the deposited data

How the results depend on the processing

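Of 225 summary values recomputed under 25 alternatives, 196 kept their value within 1.5 times (counts) or 1 SD (the median difference). The count of 23 members higher in NGP was 18 on the deposited scale and with equal ERCC medians, 21 of 30 tested with probe sets averaged per gene (HIP1R missed and CCDC62 was not tested), 19 of 26 tested without _s_at and _x_at probe sets, 22 with a pseudocount of 16 (CCDC62 missed) and 22 of 29 tested with a stricter filter. It was 23 with quantile normalization, no filter, no intensity-dependent prior variance, and each array left out. The median difference of 2.30 was 2.14 on the deposited scale, 2.13 with equal ERCC medians, 2.18 with the mean of probe sets, 2.37 without _s_at and _x_at probe sets, and 2.27 to 2.32 with an array left out. The median over all tested genes, 0.04 on centred arrays, was -0.12 on the deposited scale and -0.13 with equal ERCC medians. Counts of members called between the other lines moved with the scale, which moves all genes. Between SK-N-AS and SH-SY5Y, BE(2)-C and KELLY they were 28, 5 and 22 (90.3%, 16.1% and 71%) both on the deposited scale and with equal ERCC medians. Of all tested genes, 68.5%, 25.6% and 54.4% were called on the deposited scale, and 61.7%, 25.6% and 54% with equal ERCC medians. Between SH-SY5Y and BE(2)-C the member counts were 23 and 17 on these 2 scales (74.2% and 54.8%, against 56.1% and 47.8% of all tested genes). Between SH-SY5Y and KELLY they were 4 and 2 (12.9% and 6.45%, against 15.7% and 14.7%). Between BE(2)-C and KELLY they were 8 and 8 (25.8% each, against 42.5% and 42.1%). The count between BE(2)-C and KELLY was 1 with quantile normalization and 2 with no filter. That between SH-SY5Y and BE(2)-C was 1 with the mean of probe sets, 2 with no filter and 0 to 1 with an array left out. That between SH-SY5Y and KELLY was 0 without _s_at and _x_at probe sets, 0 with a pseudocount of 16, 0 with no filter and 0 to 2 with an array left out. That between SK-N-AS and SH-SY5Y was 8 with no filter and 4 to 6 with an array left out. The cause of these moves other than the scale was not tested. Of 767 recomputed differences of single members, 664 moved by less than the SD of the NGP arrays, 103 by more, and 0 called members changed sign. Same-numbered arrays of different lines did not deviate together (median correlation -0.04 over 30 pairs, from -0.23 to 0.23, with 5 over 0.1), so the numbers do not pair them; a fit with the replicate block gave 23 members higher in NGP and the same counts for the other contrasts. Dim probe sets limit what can be said of CCDC62, LRRC43, CFAP251 and RHOF.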
